A study of Homo sapiens with 12 samples.

Results

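The comparison set 2 single-cell clones of DU145 that carried a non-targeting guide beside the parental line they came from. DU145 is an established human prostate cancer line. Of the 12 RNA-seq libraries of the series, 6 entered it: 2 of parental cells, 2 of sgNTC clone 1 and 2 of sgNTC clone 2. The other 6 came from 3 clones made with guides against RAC1. They entered the fit of the variance and are given below only for reference. Both sgNTC clones are labelled wild type and carried the same non-targeting guide, sgNTC_1. Cells of the clones had been transfected with guide RNA and Cas9 protein complexes, plated singly and grown out, whereas the parental cells are labelled without a guide. Delivery of the complexes, cloning and the history of each clone therefore cannot be told apart. All lines grew in RPMI with 10% fetal bovine serum. Each line had 1 library in each of 2 batches, the batch being what the labels call the biological replicate. Genes with a mean of at least 1 TPM (transcripts per 1000000) in the parental or the pooled sgNTC libraries were tested, 17381 of the 56832 genes in the table.

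A non-targeting guide matches no intended site in the genome, and clones that carry one serve as the reference for cells edited at a target gene. A clone grown from a single cell carries the state of that cell, while a cell line is a mixture of cells that can differ from each other. Such a comparison shows how far the reference clones stand from the line and from each other when the target gene is intact.

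The first library of sgNTC clone 2 stood apart from the others. It listed 13608 genes above 0 TPM, against 20470 to 25156 in the other 5. In it, 857 of the 9345 genes with a mean of at least 5 TPM in the other 5 libraries were listed at 0, against 41 to 115 genes in each of the others. Between the 2 libraries of this clone 18.8% of genes with at least 5 TPM differed by more than 2-fold, compared with 4.51% between the parental libraries and 7.87% between those of clone 1. Libraries of different lines were in places closer than libraries of one line: the second libraries of the 2 sgNTC clones differed by more than 2-fold in 3.03% of genes. Some of the results that include the first library of clone 2 are therefore also given without it, and the rest are not repeated. The read depth of the libraries is unknown, since TPM keep none.

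**Figure D1:**
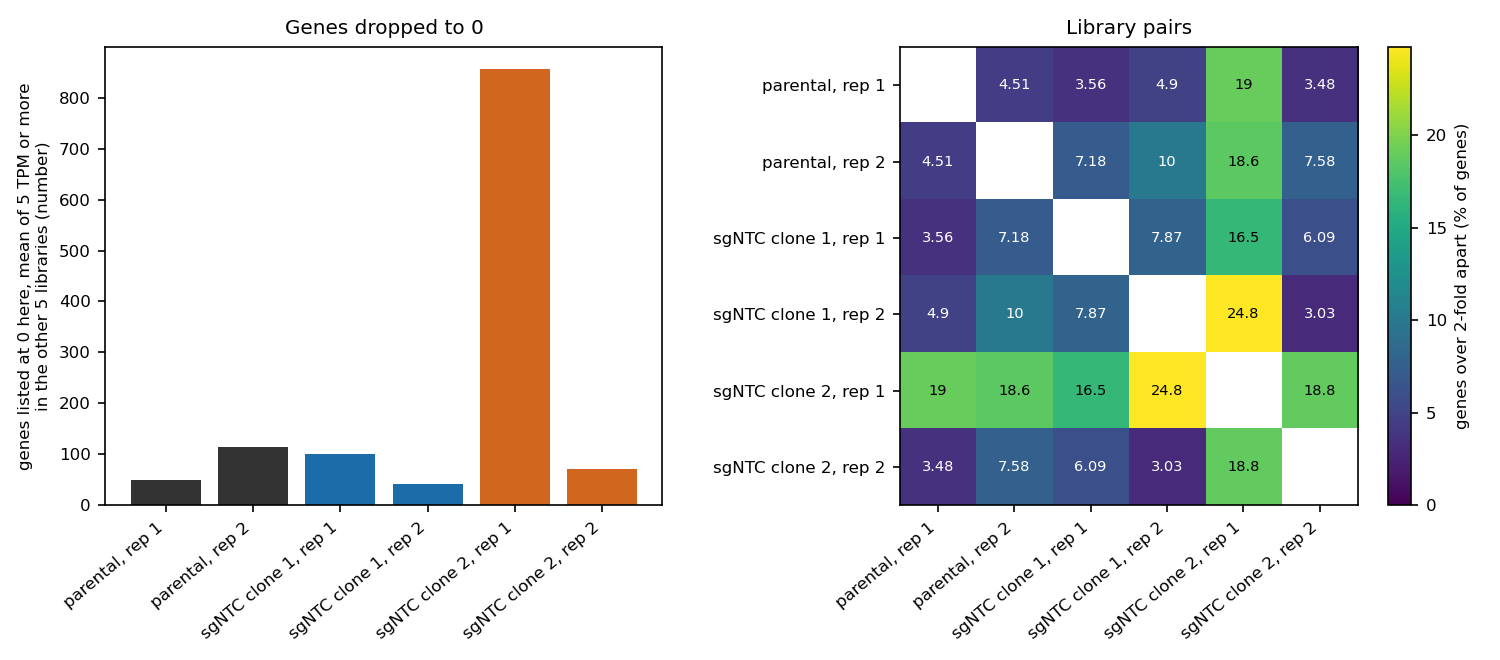
Left, number of genes listed at 0 TPM in each library among genes with a mean of at least 5 TPM in the other 5; right, percentage of genes over 2-fold apart in each pair of libraries. The first library of sgNTC clone 2 has 857 such genes and differs from each other library in 16.5% to 24.8% of genes.

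RAC1, the small GTPase targeted in the other clones, was at 171 and 170 TPM in parental cells, 188 and 149 TPM in clone 1 and 202 and 152 TPM in clone 2. The levels overlapped, with a log2 difference of 0.01 (SE 0.17) between the sgNTC clones and the parental line, or -0.09 without the first library of clone 2. For its relatives and partners the difference in log2(TPM + 1) was -0.03 for CDC42, 0.03 for RAC2 and -0.06 for VAV2, an exchange factor of Rac proteins. For EGFR, the epidermal growth factor receptor, it was -0.20, with 0.08 in batch 1 and -0.47 in batch 2, and -0.32 without the first library of clone 2. RHOG, a GTPase near RAC1 in sequence, was lower in all 4 sgNTC libraries (14.3 to 22.0 TPM) than in the parental ones (24.4 and 24.3 TPM), a difference of -0.43 (SE 0.21) that did not pass the test (limma adjusted p = 0.986). None of the 12 tested genes of the Rac, VAV and EGFR list passed.

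The labelled cell type was checked on marker genes. The carcinoma keratins KRT8, KRT18, KRT19 and KRT7 and the epithelial adhesion molecule EPCAM were present in every library, at 21.3 TPM or more. None of the fibroblast, leukocyte and endothelial markers reached the level needed for the test, and the summed level of each of these sets was at most 1.08 TPM in any of the 6 libraries compared. The summed carcinoma markers were 775 and 878 TPM in parental cells, 526 and 703 TPM in clone 1 and 336 and 533 TPM in clone 2. Less RNA per cell and fewer cells of a kind cannot be told apart in bulk RNA.

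Between the sgNTC clones and parental cells 1 gene passed the test and fell. It was KYNU, which encodes kynureninase, an enzyme of tryptophan breakdown (limma with Benjamini-Hochberg adjustment). No gene rose. The share called was 0.00575% of the genes tested, and 777 genes (4.47%) had an unadjusted p under 0.05. Of these, 265 (1.52% of genes) were higher and 512 (2.95%) lower in the clones. Genes whose 4 sgNTC libraries all lay above both parental libraries numbered 450 (2.59%), and those whose 4 lay below numbered 1345 (7.74%). Among so few libraries such an order also arises without a difference between the groups. The median difference over all genes was -0.06.

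KYNU (chr2:142877498-143055832, plus strand, GRCh38) stood at 11.8 and 10.2 TPM in the parental libraries, 2.50 and 1.74 TPM in clone 1 and 0.872 and 0.919 TPM in clone 2. All 4 sgNTC libraries were below both parental libraries, and clone 2 was below clone 1. The log2 difference was -2.31 (SE 0.18, adjusted p = 0.00835), with 7.31-fold more TPM in parental cells. It was -2.32 in batch 1 and -2.29 in batch 2. Without the first library of clone 2 it was -2.30 (adjusted p = 0.0383). When the variance came from the 6 libraries alone, KYNU did not pass (adjusted p = 0.999997), nor did it when each line gave 1 value (adjusted p = 0.284). In the 3 RAC1-targeted clones KYNU ranged from 19.6 to 33.5 TPM, above the parental libraries, so the sgNTC clones and the RAC1-targeted clones lay on opposite sides of the parental line.

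Other genes with the smallest p-values did not pass, and their values follow. FGB, the fibrinogen beta chain, was at 45.3 and 41.7 TPM in parental cells, 25.3 and 17.8 TPM in clone 1 and 11.3 and 15.6 TPM in clone 2. The groups did not overlap, and the log2 difference was -1.32 (SE 0.25, adjusted p = 0.848), or -1.21 without the first library of clone 2. BCL2A1, an anti-apoptotic relative of BCL2, was at 18.5 and 33.2 TPM in parental cells and at 1.66, 2.77, 9.39 and 1.92 TPM in the 4 sgNTC libraries. The 9.39 TPM came from the first library of clone 2, and the log2 difference went from -2.63 (SE 0.59, adjusted p = 0.848) to -3.09 without that library (adjusted p = 0.156). RAB38, a GTPase of melanosome and lysosome-related transport, was at 81.5 and 67.4 TPM in parental cells and at 39.7 to 52.4 TPM in the clones. Its difference was -0.73 (SE 0.15, adjusted p = 0.848), and it was alike in both clones at -0.77 and -0.69.

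Among the genes named for this comparison, fewer protein-coding genes stood on the higher side. ANKRD1, a nuclear ankyrin repeat protein and a target of YAP, was at 70.5 and 88.8 TPM in parental cells, 149 and 139 TPM in clone 1 and 155 and 124 TPM in clone 2. The 23 tested YAP and TAZ target genes, ANKRD1 included, had a median of -0.13, with 14 below and 9 above 0. MCAM, a cell adhesion molecule of the immunoglobulin family, was at 2.79 and 2.52 TPM in parental cells, 5.92 and 7.63 TPM in clone 1 and 5.51 and 5.62 TPM in clone 2. ST6GALNAC4, a sialyltransferase, was at 9.21 and 8.10 TPM in parental cells and at 12.8 to 15.5 TPM in the clones. For all 3 the groups did not overlap, and the log2 differences were 0.83 (SE 0.21), 0.96 (SE 0.23) and 0.61 (SE 0.17), each with an adjusted p of 0.986. All 3 kept a positive difference in each batch and without the first library of clone 2.

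F2RL1 was also named on the lower side of this comparison and is given below with clone 2. Short or repeated genes made up the rest of those named for it. The U6 snRNA pseudogene RNU6-42P, which lies within PAK2, was listed at 0 in both parental libraries and at 16.9, 6.03, 47.8 and 9.75 TPM in the sgNTC libraries (adjusted p = 0.369). The Y RNA pseudogene RNY4P10, within RXRB, was at 6.08 and 13.5 TPM in parental cells and listed at 0 in all 4 sgNTC libraries (adjusted p = 0.848). The other 6 were RN7SKP185, RPS27P23, SNRPGP2 and LINC00568 on the higher side and RNA5SP151 and RNU11-2P on the lower side, with adjusted p-values from 0.848 to 0.986. Levels of such genes are uncertain, since they have near copies elsewhere or share sequence with a host gene, and whether the counting used strand is not known here.

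**Figure D2:**
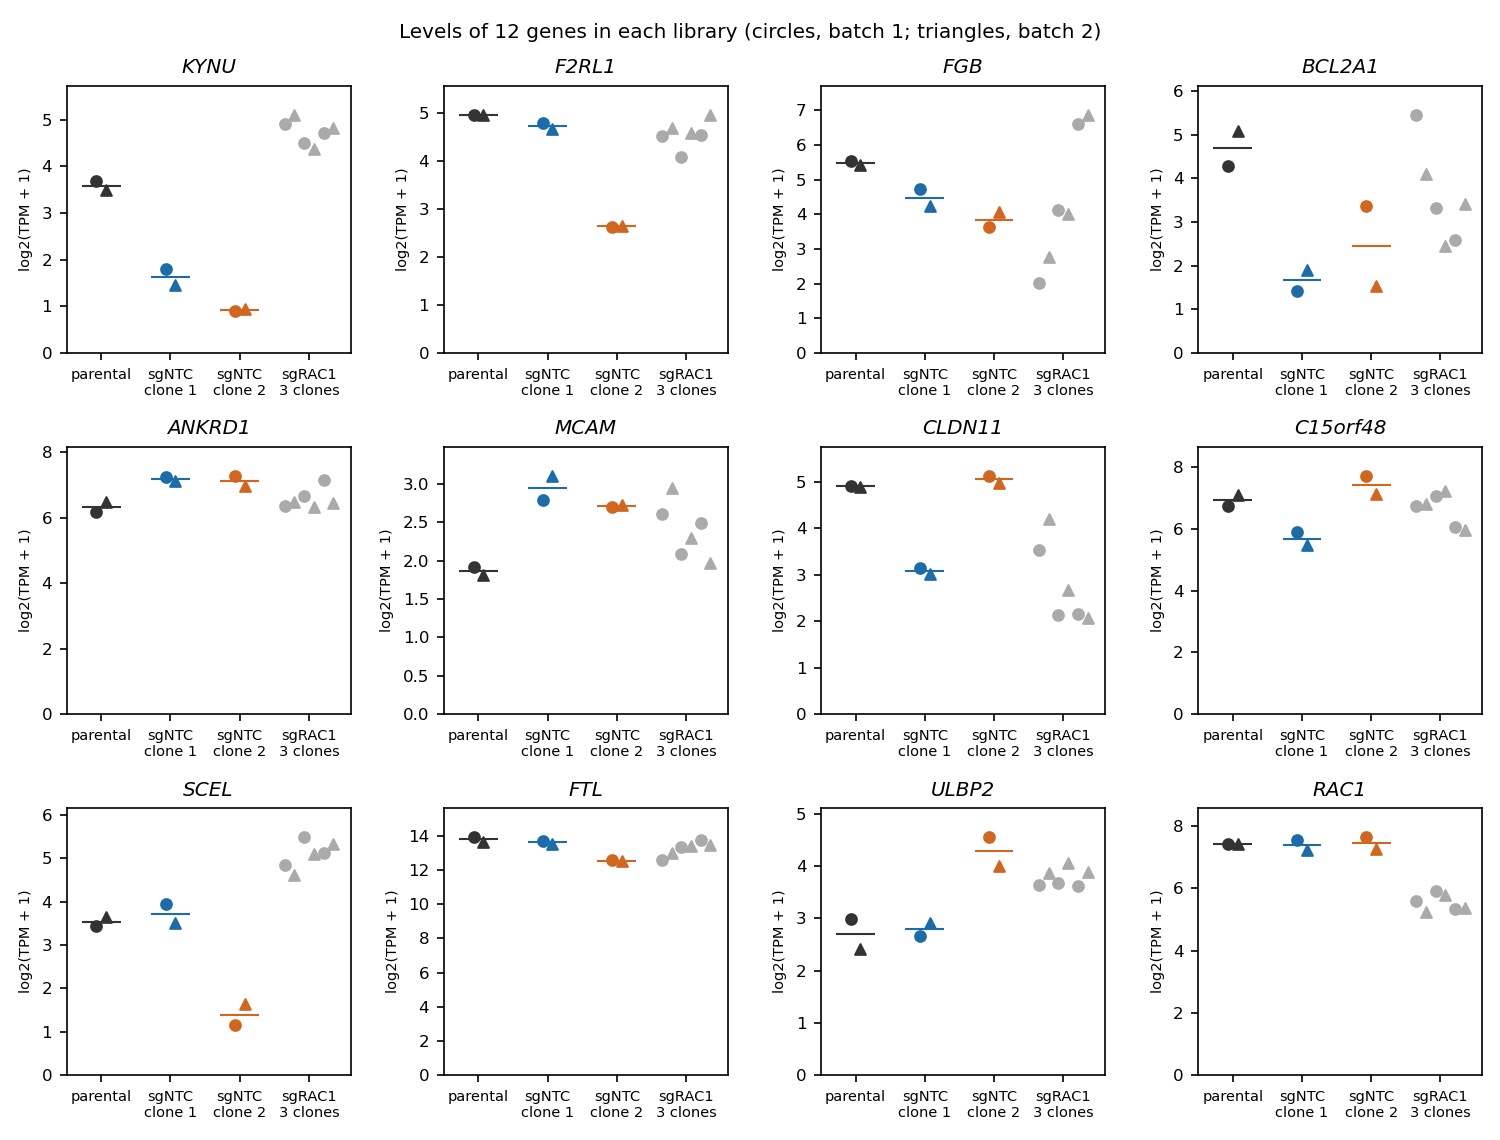
Levels of 12 genes as log2(TPM + 1) in every library of parental cells, the 2 sgNTC clones and the 3 RAC1-targeted clones (gray). Circles are batch 1, triangles batch 2 and lines the mean of 2 libraries. KYNU is lower in all 4 sgNTC libraries than in any other, while F2RL1 and SCEL are low in clone 2 and CLDN11 and C15orf48 are low in clone 1 of the sgNTC pair.

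Each clone was then compared with the parental line on its own. These comparisons share the 2 parental libraries with each other and with the pooled one. In clone 2, 2 genes passed and fell (0.0115% of genes), KYNU and F2RL1. In clone 1 no gene passed, with 572 (3.29%) at an unadjusted p under 0.05. In clone 2, 1274 genes (7.33%) had an unadjusted p under 0.05. For KYNU the log2 difference was -1.95 (SE 0.20, adjusted p = 0.106) in clone 1 and -2.66 (SE 0.20, adjusted p = 0.00844) in clone 2. The call in clone 2 was lost with 1 weight per library (adjusted p = 0.139) and with the 6 libraries alone (0.676).

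F2RL1 encodes protease-activated receptor PAR2, which is cut open by trypsin-like proteases (chr5:76818933-76835315, plus strand). It was at 30.0 and 30.3 TPM in parental cells, 26.7 and 24.3 TPM in clone 1 and 5.19 and 5.29 TPM in clone 2. Clone 2 was low in both libraries and clone 1 lay just below the parental line. The log2 difference was -2.32 (SE 0.22, adjusted p = 0.0244) in clone 2 and -0.24 (SE 0.22, adjusted p = 1) in clone 1. In the pooled comparison it was -1.28 (SE 0.19, adjusted p = 0.423). In clone 2 it was -2.31 without the first library. The call was lost without either library of clone 1, which enters only through the variance (adjusted p = 0.112 and 0.124), with 1 weight per library (0.566) and with the 6 libraries alone (0.480). In the RAC1-targeted clones F2RL1 ranged from 16.1 to 30.1 TPM.

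SCEL, which encodes sciellin, a protein of the cornified envelope of stratified epithelium, was at 9.79 and 11.5 TPM in parental cells, 14.3 and 10.3 TPM in clone 1 and 1.22 and 2.11 TPM in clone 2. The difference of clone 2 from parental cells was -2.15 (SE 0.25) and did not pass (adjusted p = 0.0859). Without the first library of clone 2 it was -1.90 and passed, with 1 library of that clone left. FTL, the ferritin light chain that stores iron, was at 15903 and 12592 TPM in parental cells, 13474 and 11657 TPM in clone 1 and 6150 and 5805 TPM in clone 2, a difference of -1.24 in clone 2 (SE 0.17, adjusted p = 0.190). FTL has many processed pseudogenes, so its level is uncertain. The low levels of SCEL and FTL in clone 2 were seen in both of its libraries.

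On the higher side in clone 2 stood ULBP2, a stress-induced ligand of the killer cell receptor NKG2D, at 22.7 and 15.1 TPM in clone 2, 6.92 and 4.31 TPM in parental cells and 5.36 and 6.54 TPM in clone 1. Its difference was 1.59 (SE 0.29, adjusted p = 0.294). It was higher in clone 2 than in the other 4 libraries, without passing the test, and the difference was 1.31 without the first library of clone 2. RNU6-42P and RN7SKP185, described above, also stood on this side. RNU6-42P passed without the first library of clone 2, which leaves 1 library of that clone.

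In clone 1 the 4 genes named on the lower side were KYNU, CLDN11, C15orf48 and VCP. CLDN11, a claudin of tight junctions, was at 29.4 and 28.6 TPM in parental cells, 7.91 and 7.15 TPM in clone 1 and 34.3 and 30.8 TPM in clone 2. C15orf48, a small mitochondrial protein, was at 106 and 137 TPM in parental cells, 59.1 and 43.2 TPM in clone 1 and 211 and 140 TPM in clone 2. VCP, an ATPase that extracts ubiquitinated proteins, was at 86.4 and 97.4 TPM in parental cells, 60.0 and 57.5 TPM in clone 1 and 88.4 and 85.7 TPM in clone 2. All 3 were lower in clone 1 than in the other 4 libraries. The log2 differences from parental cells were -1.81 (SE 0.27, adjusted p = 0.408), -1.24 (SE 0.23, adjusted p = 0.921) and -0.63 (adjusted p = 0.993). C15orf48 spans the microRNA gene MIR147B, and CLDN11 spans MIR6828. On the higher side clone 1 had small RNA genes that were listed at 0 in the parental libraries and in clone 2: MIR6781 (9.41 and 3.36 TPM, within BECN1), RNU6-553P (6.27 and 4.48 TPM, within PPA2) and SNORD82 (8.60 and 3.07 TPM, within NCL). RNU6-42P was the other.

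**Figure D3:**
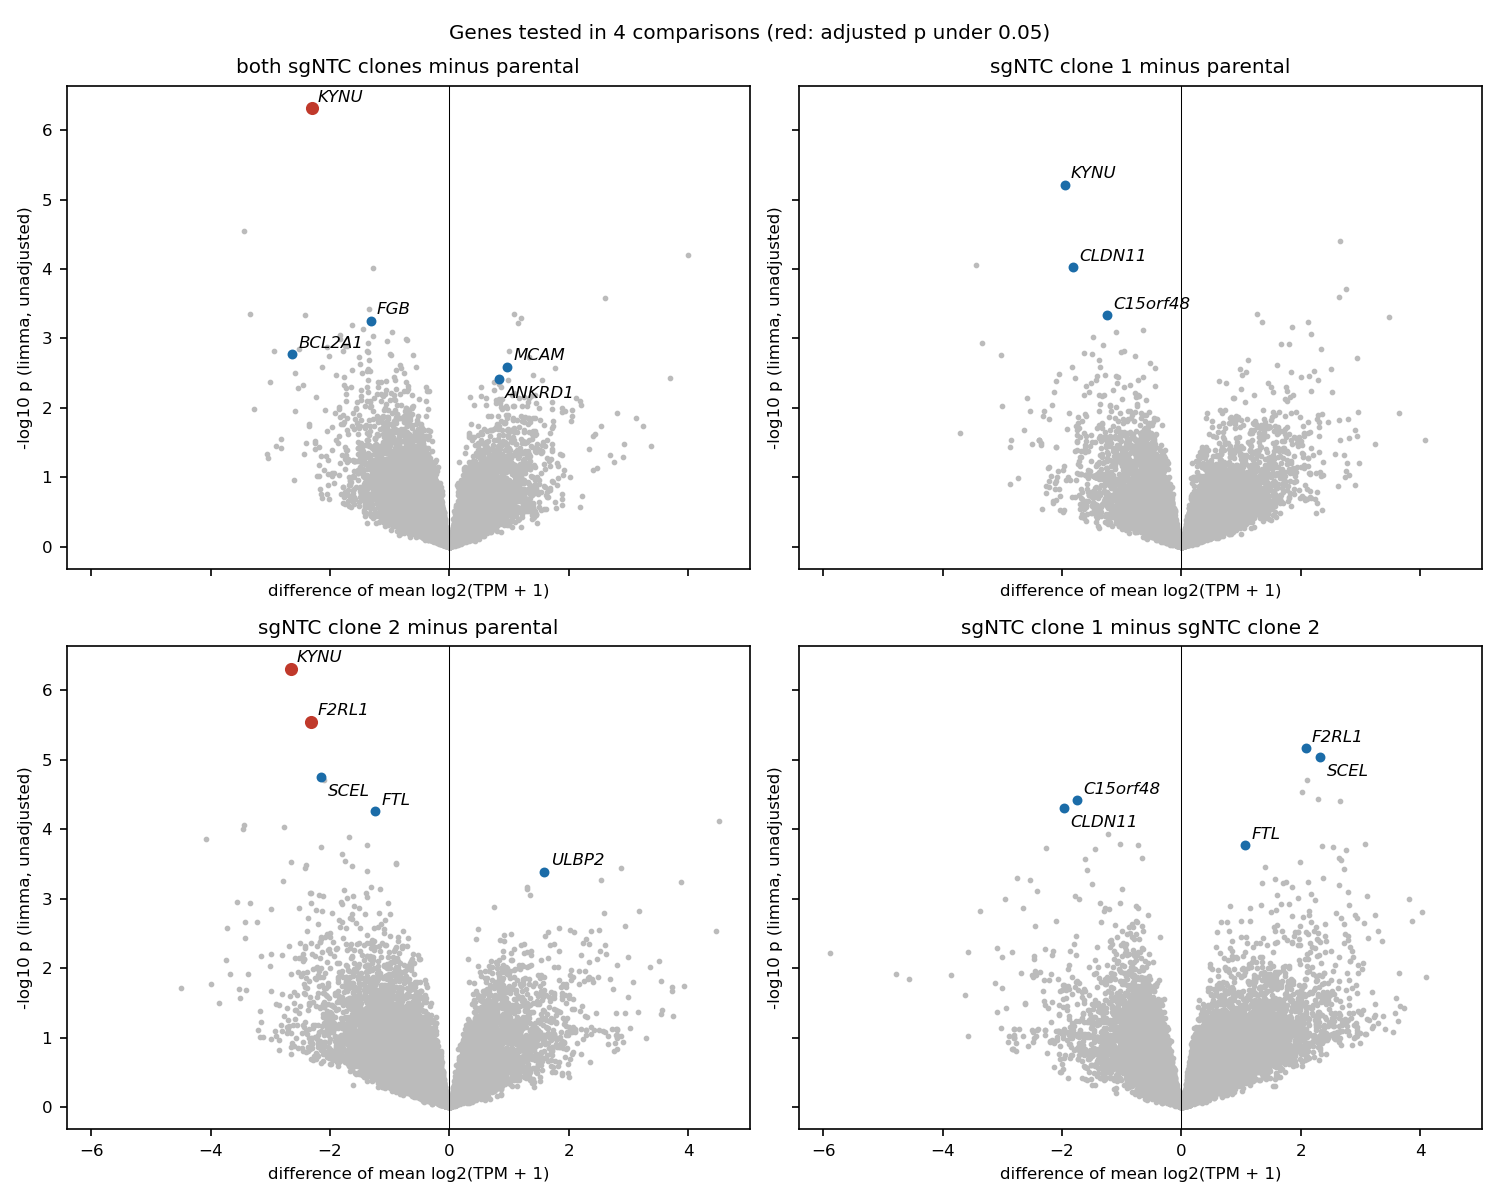
Difference of mean log2(TPM + 1) against -log10 of the unadjusted limma p for every gene tested in the 4 comparisons. Red points pass an adjusted p of 0.05: KYNU in the pooled comparison, and KYNU and F2RL1 in clone 2; labelled blue points are genes given in the text that did not pass.

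Clone 1 and clone 2 were compared directly. The parental libraries enter this test through the variance and the level filter, not through the difference. No gene passed (0% of genes), and 1330 (7.65%) had an unadjusted p under 0.05. In 2350 genes both libraries of clone 1 lay above both of clone 2 (13.5%), and in 2665 they lay below (15.3%). With 2 libraries per clone such an order also arises often without a difference between the clones. F2RL1 and SCEL had the smallest p-values, with log2 differences of 2.08 (SE 0.22, adjusted p = 0.0801) and 2.33 (SE 0.25, adjusted p = 0.0801) toward clone 1. Without the first library of clone 2 both passed, but clone 2 then has 1 library and takes its spread from the other lines. The metallothionein pseudogene MT1L was at 198 and 226 TPM in clone 1, 37.3 and 71.1 TPM in clone 2 and 122 and 137 TPM in parental cells, which lay between the clones.

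Genes that were lower in clone 1 than in clone 2 were C15orf48 (-1.75, SE 0.23, adjusted p = 0.0975), CLDN11 (-1.97, SE 0.27, adjusted p = 0.108) and 6 more by the rule. C15orf48 was at -1.46 and CLDN11 at -1.90 without the first library of clone 2, and neither passed. NCOA7, a nuclear receptor coactivator, was at 11.4 and 11.5 TPM in clone 1, 34.0 and 23.4 TPM in clone 2 and 19.8 and 19.3 TPM in parental cells. LIMCH1, an activator of non-muscle myosin, was at 25.2 and 20.2 TPM in clone 1, 49.4 and 44.3 TPM in clone 2 and 27.3 and 27.5 TPM in parental cells. Parental cells again lay between the clones, and both genes had an adjusted p of 0.191. The same held for the transcription factor FOXP1, the ubiquitin ligase adaptor ASB9, the actin monomer binder TMSB4X and the pseudogene FRG1CP, with adjusted p-values of 0.191 to 0.256. Over all genes tested, 388 (2.23%) had both libraries of 1 clone above and both of the other clone below both parental libraries.

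Gene lists were described by the number of members called, their separation and their median. No member of the 36 lists passed in any of the 4 comparisons. Over all 17381 genes tested only 1, 0, 2 and 0 passed, so the absence of calls is not particular to the lists. The lists whose medians lay farthest below that of all genes (-0.06) were the NF-kB and inflammatory genes (-0.51, 19 tested), the HOX genes (-0.31, 18 tested), the integrated stress and unfolded protein genes (-0.31, 20 tested), the ERK output and immediate early genes (-0.22, 21 tested) and the EGFR ligands and ERBB receptors (-0.20, 11 tested).

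Of the 19 NF-kB and inflammatory genes, 16 had a negative and 3 a positive difference. Over all genes tested, 10165 of 17381 had a negative one. In 4 genes of the list all sgNTC libraries were below both parental libraries, which holds for 7.74% of all genes. The list median by library, relative to the parental mean, was -0.31 and -0.38 in clone 1 and -0.58 and -0.48 in clone 2, with -0.14 and 0.14 in the parental libraries. CXCL1, a neutrophil chemokine, was at 9.46 and 33.9 TPM in parental cells, 6.50 and 3.65 TPM in clone 1 and 0 and 3.22 TPM in clone 2. NFKBIA, the inhibitor that NF-kB itself induces, was at 82.3 and 99.9 TPM in parental cells and at 60.3 to 70.1 TPM in the clones. The 2 parental libraries differed most in the chemokines: CXCL8 was at 139 and 374 TPM in them and at 98.4 to 152 TPM in the clones, so the groups overlapped. The median was -0.18 without the second parental library, -0.75 without the first and -0.36 without the first library of clone 2.

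The stress list had the same dependence on the second parental library, its median going from -0.31 to -0.08 without it. Its members with the smallest p-values were MANF, a protein of the endoplasmic reticulum released under stress, and HERPUD1, a component of protein degradation from it. MANF was at 29 and 57.2 TPM in parental cells, 16 and 27.6 TPM in clone 1 and 17.0 and 16.6 TPM in clone 2. HERPUD1 was at 36.1 and 91.4 TPM in parental cells and 14.3, 35.9, 11.9 and 30.2 TPM in the sgNTC libraries, higher in batch 2 in each of the 3 lines. Neither passed (adjusted p = 0.986 for both).

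By library the median of the EGFR ligands and ERBB receptors was 0.07 and -0.36 in clone 1 and -0.04 and -0.36 in clone 2, with -0.09 and 0.09 in the parental libraries. Over the line means it was -0.10 in clone 1 and -0.04 in clone 2, against -0.07 and -0.05 for all genes. Of these 11 genes, 7 had a negative and 4 a positive pooled difference. In 1 of them all sgNTC libraries were below both parental libraries, which holds for 7.74% of all genes. Of the 21 ERK output and immediate early genes, 17 were below and 4 above 0, and 3 were separated in that way. Among the EGFR ligands, AREG, amphiregulin, stood lowest against parental cells. It was at 163 and 176 TPM in parental cells, 112 and 119 TPM in clone 1 and 46.5 and 85.5 TPM in clone 2. Parental cells were above clone 1 and clone 1 was above clone 2, with a log2 difference between the sgNTC clones and parental cells of -0.98 (SE 0.27, adjusted p = 0.986), or -0.77 without the first library of clone 2. TGFA, a second ligand, was at 17.3 and 22.8 TPM in parental cells, 23.3 and 17.8 TPM in clone 1 and 10.3 and 8.31 TPM in clone 2. EGR1, an immediate early transcription factor downstream of ERK, was at 34.0 and 31.1 TPM in parental cells, 18.0 and 14.3 TPM in clone 1 and 29.3 and 10.6 TPM in clone 2 (-0.90, SE 0.35, adjusted p = 0.986). PLAU, the urokinase that activates plasminogen, belongs to another list, the matrix proteases and inhibitors. Of its 15 tested genes, 11 were below and 4 above 0. PLAU was at 111 and 117 TPM in parental cells, 101 and 82.7 TPM in clone 1 and 67.6 and 54.7 TPM in clone 2 (-0.60, SE 0.14, adjusted p = 0.848).

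The HOX list was at -0.83 in the first library of clone 2 and at -0.35 in the second, with -0.09 and -0.13 in clone 1. In the first library of clone 2, which lists many genes at 0, several HOX genes were at 0: HOXA5, HOXA6, HOXA11, HOXB5, HOXB8, HOXC9 and HOXC11. Without that library the list median was -0.29.

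Lists that mark a response to DNA damage, foreign nucleic acid or altered growth had pooled medians from -0.13 to 0.08. The 21 p53 target genes had a median of -0.05, and 15 were below and 6 above 0. Over all genes tested the median was -0.06, and 10165 of 17381 were below 0. CDKN1A, the cell cycle inhibitor, was at 23.1 and 29 TPM in parental cells and at 13.4 to 29.7 TPM in the clones. The 23 DNA repair genes had a median of -0.03, the 22 interferon stimulated genes -0.10, the 17 MHC class I and antigen processing genes -0.13, the 31 DNA replication genes -0.13, the 26 mitosis genes 0.08 and the 76 ribosomal protein genes 0.01. The MHC class I list had 14 members below and 3 above 0. In clone 1 its median was -0.25, with -0.49 and -0.22 in the libraries and 15 of 17 below 0. In clone 2 it was -0.08, with 12 below 0, as were 9501 of the 17381 genes tested. In clone 1, 20 of the 23 DNA repair genes were also below 0, at a median of -0.10, as were 10469 of the 17381 genes tested. The median of this list was -0.02 and -0.25 in the libraries of clone 1. In clone 2 it went the other way, at 0.09 with 15 of 23 above 0, as were 7752 of the 17381 genes tested. PSMB9, a subunit of the immunoproteasome, was lower in clone 1 (0.980 and 0.981 TPM) than in parental cells (3.61 and 3.99 TPM) and clone 2 (3.33 and 3.74 TPM), without passing the test (adjusted p = 1). The 15 housekeeping genes had a pooled median of -0.02, with 10 below and 5 above 0. Among them ACTB, beta actin, was at 4958 and 6892 TPM in parental cells, 2314 and 4846 TPM in clone 1 and 1543 and 3280 TPM in clone 2. It was higher in batch 2 in each of the 3 lines (-1.09, SE 0.44, adjusted p = 0.986).

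**Figure D4:**
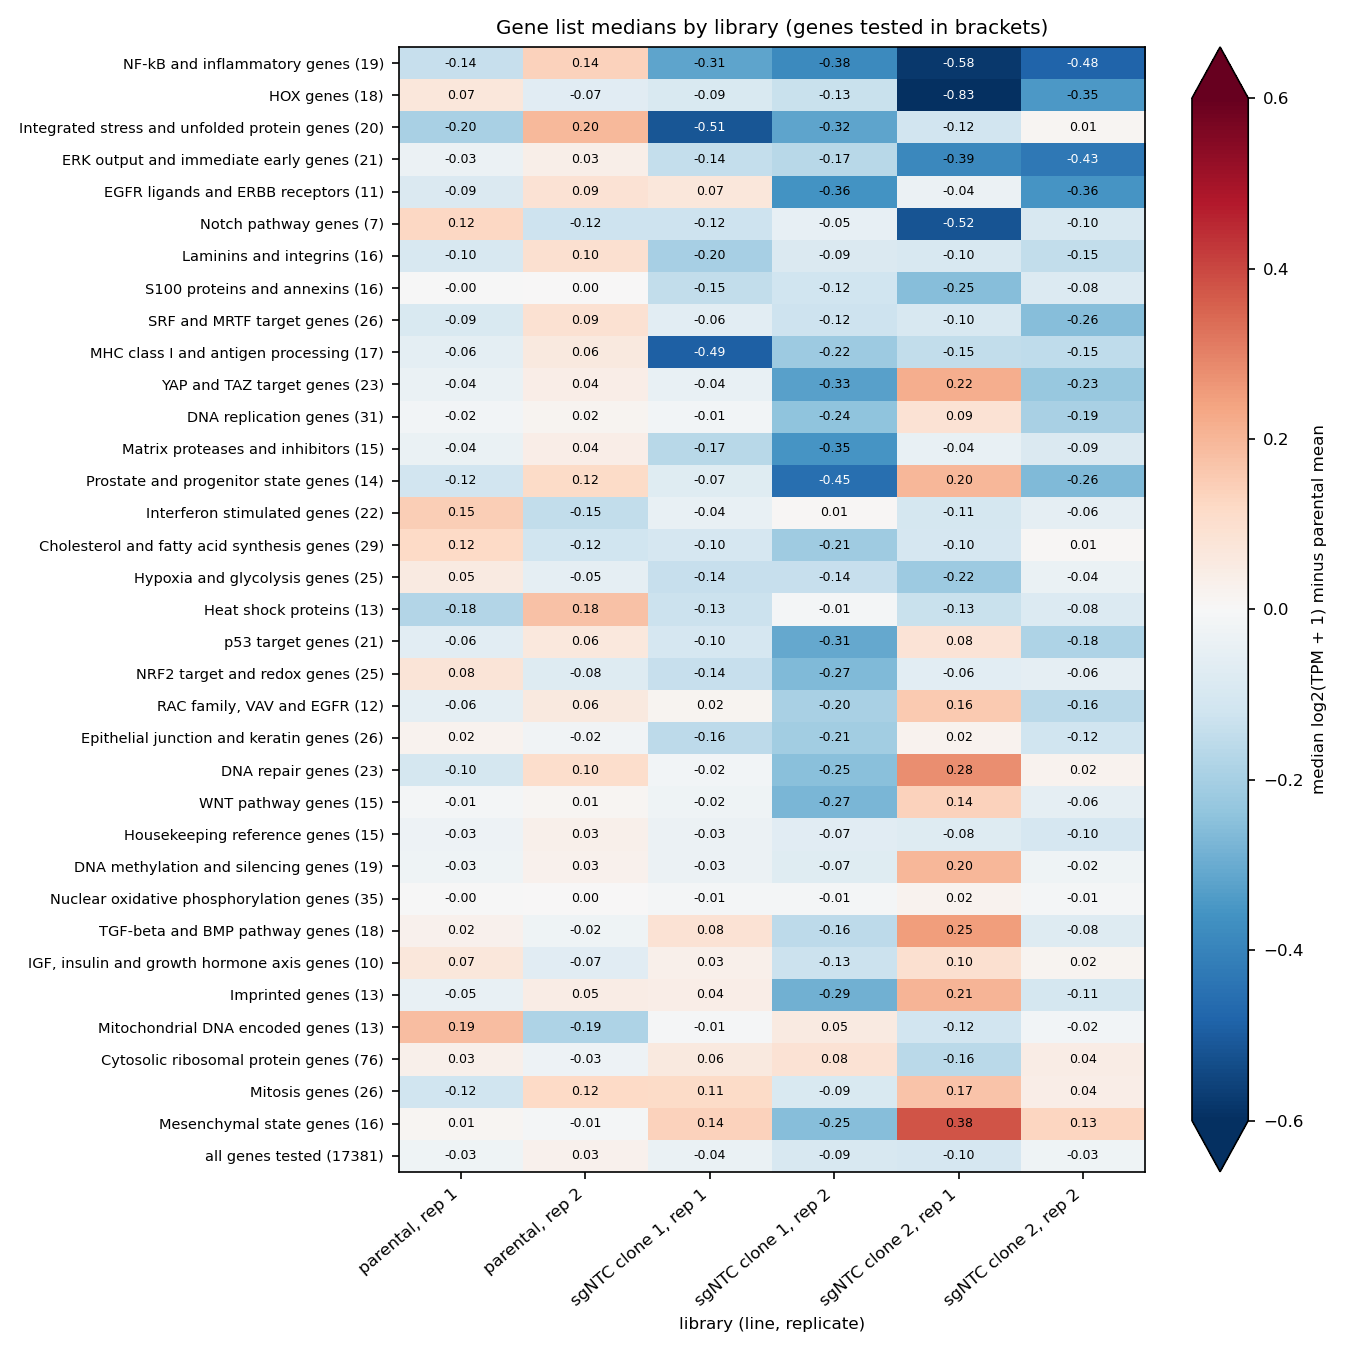
Median of log2(TPM + 1) minus the parental mean over the tested genes of each list (rows, number of genes in brackets) in the 6 libraries (columns). The NF-kB and inflammatory list is at -0.31 to -0.58 in the 4 sgNTC libraries, and all genes tested are at -0.10 to 0.03 in the 6 libraries.

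Chromosomal position was described after the data were seen. Of all genes tested, 68.4% had a position in GENCODE 29, too few for a statement on all of them. Among genes with a mean of at least 5 TPM whose symbol is not a clone name, 96.2% had one, and the 6704 protein-coding genes of these were used. Differences from parental cells were set relative to the median of all genes used. Chromosome 9 was at 0.11 in clone 1, with 0.08 and 0.13 in its libraries, and the other chromosomes were between -0.03 and 0.03. In neither of its libraries alone was chromosome 9 the highest. In clone 2, chromosome 9 was at 0.08, with 0.06 and 0.11 in its libraries, among chromosomes between -0.12 and 0.10. In the second library of clone 2 alone, chromosome 9 was the highest, ahead of chromosome 19 at 0.09.

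In runs of 50 neighbouring genes, chr9:83659963-101563344 was at 0.16 in clone 1 (0.19 and 0.10 in its libraries) and 0.13 in clone 2 (0.18 and 0.13). The next run, chr9:104094260-122913330, was at 0.14 in clone 1 (0.15 and 0.09) and 0.24 in clone 2 (0.33 and 0.09). The run after it, chr9:122915566-130043194, was at 0.15 in clone 1 (0.00 and 0.28) and -0.03 in clone 2 (-0.26 and 0.23), so its libraries differed within each clone. Chromosome 9 was not alone: chr8:58552924-90985257 was at 0.11 in clone 1 and 0.16 in clone 2, and chr8:91070196-116874866 at 0.14 and 0.22. In the second library of clone 2 these chromosome 8 runs were at 0.07 and 0.04. The SD over the 124 runs was 0.05 in clone 1 and 0.09 in clone 2. The same first run was at 0.16 in RAC1-targeted clone 1 and at -0.27 and -0.20 in RAC1-targeted clones 2 and 3, all against the same parental libraries. The lowest run in clone 1 was chr8:614746-28890242, at -0.20 (-0.19 and -0.19), and it was at -0.04 in clone 2. These are small shifts of many genes, given without a test.

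**Figure D5:**
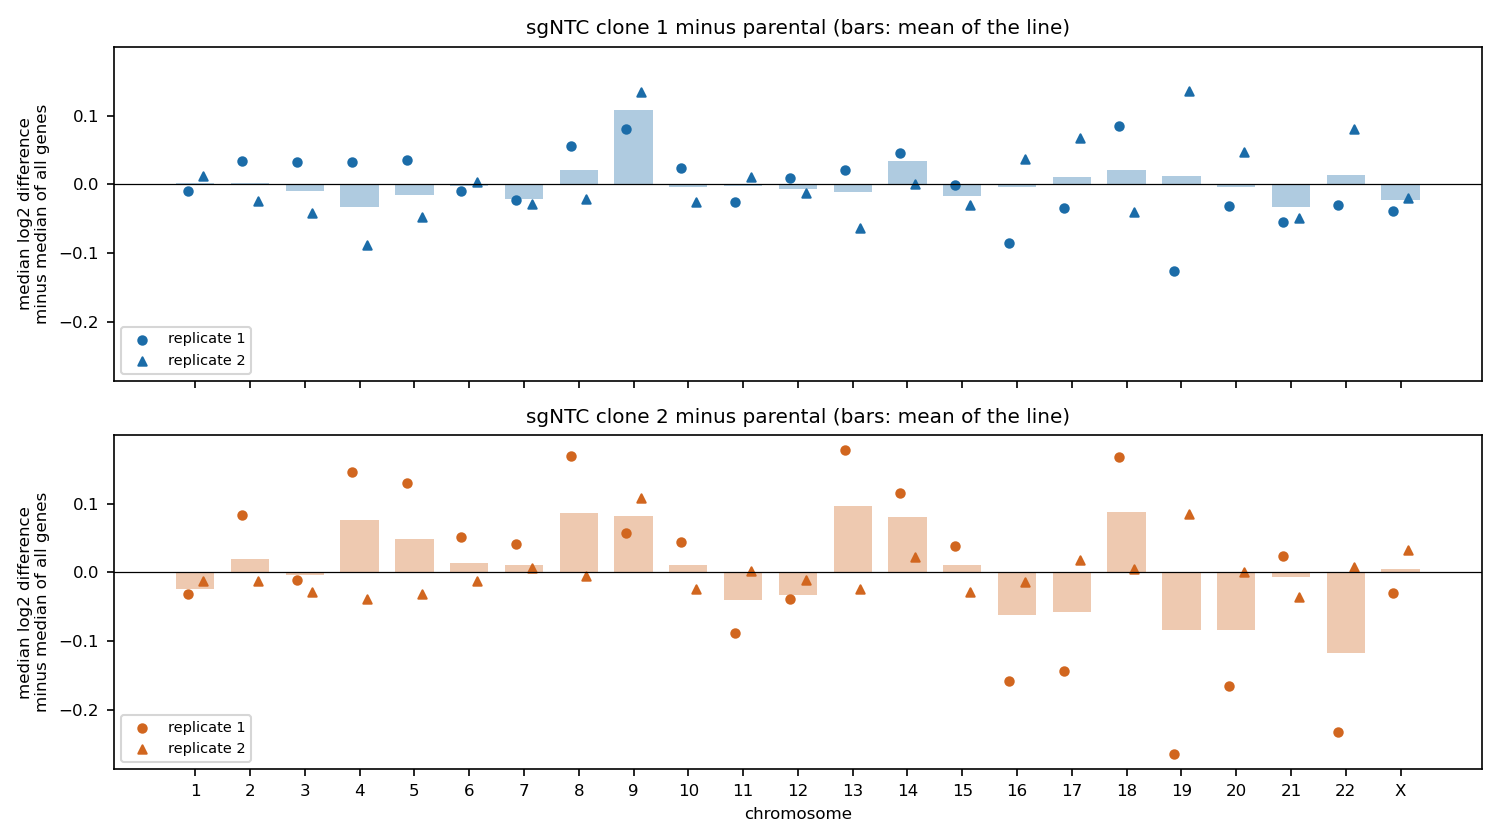
Median log2 difference from parental cells of protein-coding genes on each chromosome, relative to the median of all genes used, for sgNTC clone 1 (top) and clone 2 (bottom). Bars are the line means and points its 2 libraries. Chromosome 9 is at 0.11 in clone 1 and 0.08 in clone 2, and the first library of clone 2 spreads widely, from -0.26 to 0.18.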

How the data were processed

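RNA from 6 DU145 lines was sequenced in 2 batches, 1 library per line and batch. Per the submitters' processing notes, reads were handled with bcl2fastq and STAR 2.6.1d on GRCh38, and DESeq2 is also named there; the sources used here do not give the counting tool, strandedness or gene models. The authors deposited the levels as TPM, which sum to 1000000 in each library and keep no depth, so counting error is unknown. Values were tested as log2(TPM + 1), after a filter of a mean of at least 1 TPM in parental or sgNTC libraries, with limma 3.58.1 in R 4.3.3: 1 mean per line over all 12 libraries, moderated variances with a trend, Benjamini-Hochberg adjustment at 0.05. Differences are between means of this log2 scale, which understates changes of low genes. The pooled comparison averages the 2 clones. P-values reflect how 2 libraries of one line vary, not how clones vary, and the labels do not say what else separates the biological replicates. The labels say that a replicate number is a batch, so libraries are paired by batch. Deviations of same-numbered libraries correlated across genes at -0.11, -0.11 and 0.29 between the 3 lines. Batch was an alternative term. No pair of libraries was identical.

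Named genes were RAC1, RAC2, RHOG, CDC42, VAV2 and EGFR. In addition, up to 12 genes per direction in the pooled comparison, 8 between clones and 4 for each clone were named: those that passed, had libraries that did not overlap and reached 5 TPM in the higher group, by size of difference. Places were filled to 8 (4 for a clone) by smallest p. The fill for the clone comparisons is a reading of that rule. Of each list with no member that passed, the 2 with the smallest p were eligible. Clone names and Y-linked genes were passed over, and CXCL8, NFKBIA, CDKN1A and the HOX genes at 0 were named after their values were seen. Some named and marker genes are not reported here. The genes compared and the lists were chosen with earlier results of these data known. Positions came from GENCODE 29 (GRCh38). The scripts were tested on simulated data.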

Additional observations from a re-analysis of the deposited data

Results flagged for a closer look

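In 10 of the 16 genes named for the comparison of the 2 sgNTC clones, both libraries of 1 clone lay above and both of the other below both parental libraries, which held for 388 of the 17381 genes tested (2.23%). The effects of the clones against the same parental line thus had opposite signs. That opposition was not tested on its own: the test of clone 1 against clone 2 passed for none of the 10 genes, and the genes were named for a difference between the clones. Only genes whose clones did not overlap could be named, 2350 with clone 1 above and 2665 with clone 1 below. The 388 all lie among those genes, so 2.23% of all genes tested is no base for the 10 of 16. The log2 differences of clone 1 minus clone 2 were 3.08 for RPL31P7 and 2.01 for MT1L. They were -2.27 for FRG1CP, -1.97 for CLDN11, -1.75 for C15orf48, -1.58 for ASB9 and -1.45 for FOXP1. For NCOA7, LIMCH1 and TMSB4X they were -1.23, -1.02 and -0.73. RPL31P7, MT1L, FRG1CP and TMSB4X have near copies, so their levels are uncertain. RPL31P7 was listed at 0 in both libraries of clone 2. Without the first library of clone 2, MT1L and NCOA7 passed in limma. Clone 2 then has 1 library and takes its spread from the other lines, so these passes add no support.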

How the results depend on the processing

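The numbers of genes that passed were 1 for the pooled comparison, 0 for clone 1, 2 for clone 2 and 0 between the clones. With a replicate block these were 1, 0, 2 and 0 again, and upper quartile scaling and a pseudocount of 5 also left them as they were. With the 6 libraries alone no gene passed in the pooled comparison (0) or in clone 2 (0), and with 1 value per line none did in the pooled comparison (0). With 1 weight per library clone 2 had 0. Without a level filter the numbers were 3, 12, 4 and 11, and with a pseudocount of 0.1 they were 2 for the pooled comparison, 13 for clone 2 and 11 between clones. Between clones, median-of-ratios scaling gave 1 and a minimum of 5 TPM gave 2. That scaling moved the median of clone 1 minus clone 2 over all genes from 0 to 0.10. Leaving out 1 library gave 1 to 228 genes in the pooled comparison, 0 to 136 in clone 1, 1 to 1953 in clone 2 and 0 to 2519 between clones. The line left with 1 library is then assumed to vary like the others. The highest numbers, 228, 1953 and 2519, came without the second library of clone 2, which leaves the library with many genes at 0. Without the first parental library the numbers were 150, 136, 159 and 5, and without the second 125, 103, 109 and 4. Of the 150 and 125 in the pooled comparison, 128 and 113 genes were listed at 0 in all libraries of the other lines. Without the first library of clone 2 the numbers were 1, 0, 75 and 75, and 62 of the 75 genes, in both comparisons, were at 0 in the other lines. Without the second library of clone 1, clone 1 had 30 and the pair of clones 30. KYNU was among the genes that passed in the pooled comparison in each of these settings except the 6 libraries alone and 1 value per line. Counts within a batch could not be had, with 1 library per line there.

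Signs of small differences turned under some settings, with the cause not tested. When 1 library was left out, the difference of the sgNTC clones from parental cells ranged from -0.095 to 0.108 for RAC1, -0.113 to 0.175 for RAC2, -0.161 to 0.092 for CDC42 and -0.180 to 0.068 for VAV2. It ranged from -0.011 to 0.178 for MT-CO2, -0.248 to 0.034 for PRAME, -0.408 to 0.039 for UHRF1 and -0.297 to 0.293 for PCDHB2. PCDHB2 also went to 0.031 with median-of-ratios scaling, 0.0013 with upper quartile scaling and 0.025 with a pseudocount of 5.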
